A study of Mus musculus with 20 samples.

Results

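Oxidative phosphorylation was followed through the transcripts of its own machinery in mouse liver: the genes for the respiratory chain complexes I to IV and the ATP synthase, whether carried by the nucleus or by mitochondrial DNA. Members were taken by symbol (Nduf, Sdha to Sdhd, Uqcr, Cox4 to Cox8, Atp5, and the mitochondrial mRNAs mt-Nd, mt-Co, mt-Cytb and mt-Atp), leaving out predicted gene models and symbols that end in -ps. This gave 110 of the 49315 genes in the table, 97 nuclear and 13 mitochondrially encoded. The 20 livers were those of DIO-NASH mice, in which an AMLN diet rich in fat, fructose and cholesterol causes obesity and fatty liver inflammation, and both groups carried this diet background. The 10 vehicle animals were given hydroxyethylcellulose (HEC, 1%) and the 10 treated animals S217879, dosed orally at 30 mg/kg each day. Treatment lasted 8 weeks in both groups. As the series title puts it, the interaction of NRF2, a transcription factor, with KEAP1, which holds it in check, was selectively disrupted, and the question was the effect on steatohepatitis and fibrosis. Livers of mice on a normal diet were not analysed here.

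The respiratory chain passes electrons from NADH (through complex I) and succinate (through complex II) to coenzyme Q, complex III, cytochrome c and complex IV, where oxygen is reduced. The protons pumped on the way drive the ATP synthase. Most subunits are made from nuclear genes and imported, while a small core of hydrophobic subunits of complexes I, III, IV and the ATP synthase is made inside the organelle from mitochondrial DNA, so that building a complex draws on both genomes. Hepatocytes are rich in mitochondria, and fatty liver disease has long been studied for changes in how they burn fat.

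Values were TPM, which give the part of a library that a gene takes once reads are divided by gene length and each library is brought to the same total. The depth of each library is therefore unknown. Between 24660 and 27740 genes were above 0 in a library. The 4 genes made of ribosomal RNA-type sequence took from 17.37% to 58.24% of a vehicle library and from 14.07% to 38.07% of an S217879 library, and vehicle replicates 6 and 7 stood apart with 58.24% and 50.73%. Such a share lowers every other gene of its library. Most results on the members are therefore given on the TPM as deposited and again after median-of-ratios scaling. In that scaling each library is divided by its median ratio to a reference made of 13226 genes. Single genes of other lists are given mainly as deposited. The test was limma on log2(TPM + 0.5), S217879 minus vehicle, over the 13401 genes whose mean over the libraries reached 1 TPM, with a Benjamini-Hochberg adjusted p under 0.05 as a call. It called 6.07% of the genes higher and 23.5% lower in the treated livers as deposited, and 26.6% higher and 27.1% lower after scaling. Over all tested genes the median log2 difference moved by 0.11 between the scales, from -0.12 to -0.01. Hepatocyte markers (Alb, Apoa1, Ttr) were abundant in every library, as the liver label states. Each animal is numbered separately in the labels, so p-values measure the spread between animals. In these bulk samples fewer cells of a type and less RNA per cell cannot be told apart.

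The nuclear OXPHOS genes were higher in livers of S217879-treated mice relative to the other genes, by a similar amount in nearly all members. Of the 97 nuclear members, 88 reached the minimum of 1 TPM. After scaling 83 of these 88 (94.3%) were called higher and 1, Cox7a1, was called lower, against the 26.6% and 27.1% of all genes given above. Their median log2 difference was 0.34, and 75 of the 88 lay between 0.2 and 0.5. As deposited 12 members were called higher, 13.6% against 6.07% of all genes, and 1 was called lower, with a median of 0.23. That count of 12 moved between 4 and 14 when 1 library was left out, and was 4 to 6 without vehicle replicate 3, 4 or 7 or without S217879 replicate 1, 4, 5, 6, 8, 9 or 10. Groups that did not overlap were found in 0 nuclear members as deposited, where 1.84% of all genes lay wholly higher and 1.89% wholly lower. After scaling 43 of the 88 lay wholly higher and 1 wholly lower, against 7.54% and 5.04% of all genes. A log2 difference above 0 was seen in 82 of the 88 as deposited, against 31.9% of all tested genes, and in 86 after scaling, against 48.2%. Measured from the median of all tested genes, the nuclear members stood 0.34 higher as deposited and 0.35 higher after scaling, values that are bound to be close because the scaling moves all genes of a library alike. Quantile normalization, which can change that distance, gave 0.165, with 62 members called higher (26.4% of all genes) and 2 lower (25% of all genes).

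Summed over the 97 nuclear members, a vehicle library held from 7417 to 14230 TPM as deposited with a median of 12920, and an S217879 library from 11070 to 16450 with a median of 13930. The groups overlapped, and the S217879 mean was 14.3% higher (11950 ± 2460 and 13660 ± 1641, SD, n = 10 each). After scaling the sums ran from 9885 to 12260 in vehicle (median 11260) and from 13100 to 16320 in S217879 (median 14000). These ranges did not overlap, and the means differed by 26.0%. The members varied little between animals of a group once scaled, with a median coefficient of variation of 7.55% in vehicle and 8.86% in S217879, against 21.1% and 13.8% as deposited.

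**Figure D1:**
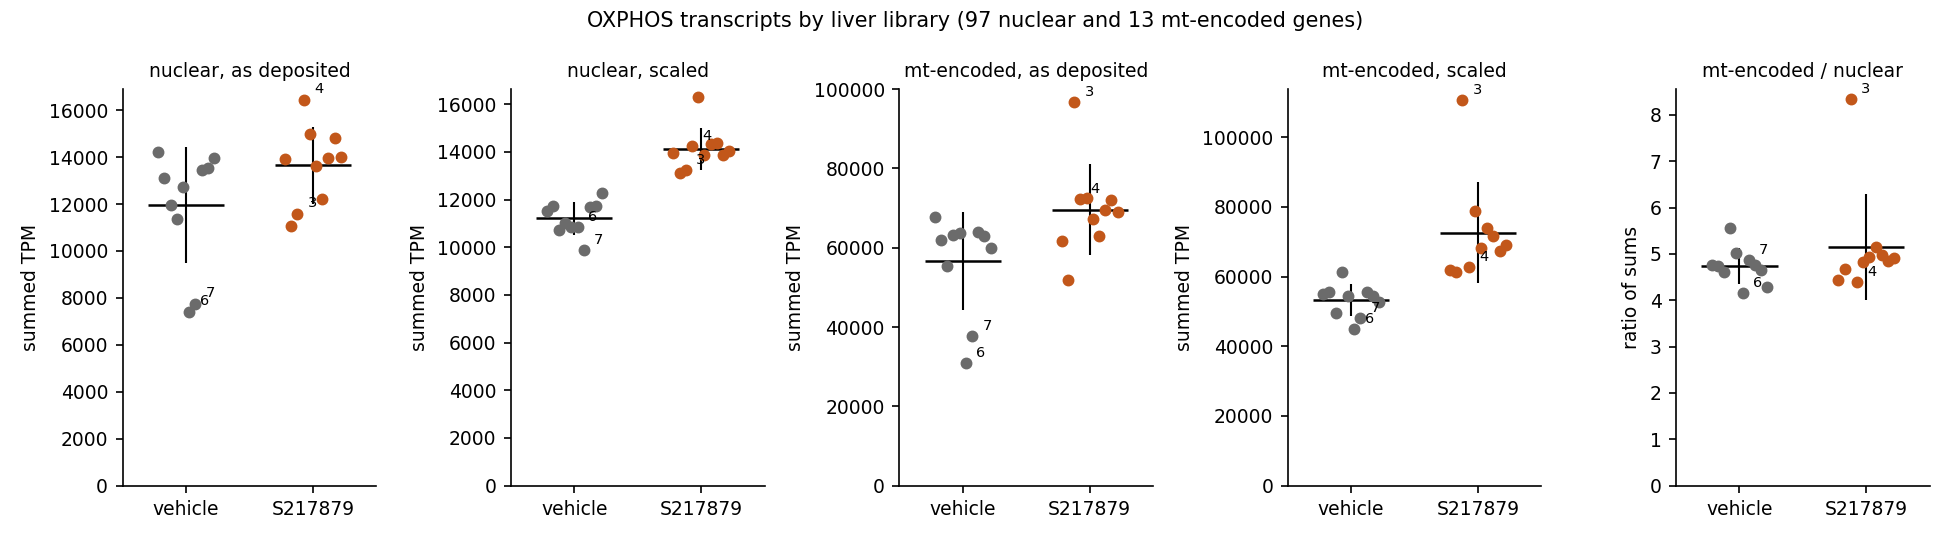
Each point is 1 liver library, the line the group mean and the bar 1 SD (n = 10 each). The panels plot, from left to right, the summed TPM of the 97 nuclear members as deposited and after median-of-ratios scaling, the same for the 13 mt-encoded members, and the ratio of the mt-encoded to the nuclear sum, with vehicle replicates 6 and 7 and S217879 replicates 3 and 4 numbered. The scaled sums of the groups do not overlap (nuclear up to 12260 in vehicle, from 13100 in S217879), while the ratio overlaps and has S217879 replicate 3 at 8.344.

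The size of the nuclear difference depended on what a library was divided by and on vehicle replicates 6 and 7. Without vehicle replicates 6 and 7, the nuclear sum as deposited was 4.72% higher in S217879, with 10 members called higher (5.52% of all genes) and 2 lower (54.5% of all genes). After scaling, leaving out the same libraries gave 23.6%, with 80 called higher (24.1% of all genes) and 1 lower (23.8% of all genes). When TPM was rescaled without the 4 ribosomal RNA-type genes, the nuclear sum was 5.28% higher with overlapping groups, 34 members were called higher (7.54% of all genes) and 6 lower (64% of all genes). The median of all tested genes was then -0.25 and that of the nuclear members 0.08. With all 20 libraries the difference of the sums ran from 5.28% to 26.0% between these divisors, each of which moves all genes of a library alike.

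Complex I, the NADH dehydrogenase, gave the largest block, with 39 nuclear subunit genes of which 37 were tested. After scaling 34 of the 37 were called higher and 0 lower, with a median log2 difference of 0.33, and 7 were called higher as deposited. Of all tested genes 26.6% were called higher and 27.1% lower after scaling, and 6.07% higher as deposited. The core subunits Ndufs1, Ndufs3, Ndufs7, Ndufs8, Ndufv1 and Ndufv2 belong to the matrix arm, and most of them carry the flavin or iron-sulfur clusters. All 6 were called higher after scaling, between 0.35 and 0.47, and 2 of them as deposited. These 2 were Ndufv1, which binds NADH and the flavin, at 63.52 to 135.4 TPM in vehicle (median 117.7) and 101.9 to 152 TPM in S217879 (median 140.4), and its iron-sulfur partner Ndufv2. In both genes 8 of the 10 treated livers exceeded the vehicle median and the ranges overlapped. They rose by 0.35 ± 0.13 (adjusted p = 0.0385) and 0.34 ± 0.13 (adjusted p = 0.0438), calls lost in 9 and 11 of the 20 runs that left out 1 library. Neither was among the genes named by rule, and both are detailed as the core subunits called as deposited.

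Among the accessory subunits Ndufb3, a small protein of the membrane arm, had the largest rise of the nuclear protein-coding members. Its level was 48.6 to 97.71 TPM in vehicle (median 89.83) and 85.96 to 152.4 TPM in S217879 (median 108.4). All but 1 of the S217879 livers lay above the vehicle median, and the groups overlapped as deposited. Ndufb3 rose by 0.44 ± 0.13 (log2 difference ± SE, adjusted p = 0.0103), a 1.36-fold difference, and after scaling by 0.56 ± 0.06 (adjusted p = 2.03e-07) with groups that did not overlap.

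Ndufa10, an accessory subunit of the matrix side of complex I, ran from 37.1 to 75.13 TPM in vehicle (median 70.39) and from 69.37 to 103.7 TPM in S217879 (median 84.33). The ranges overlapped as deposited and separated after scaling. It rose by 0.40 ± 0.13 as deposited (adjusted p = 0.0136) and by 0.52 ± 0.04 after scaling (adjusted p = 4.33e-09). Ndufb9 and Ndufb5, both of the membrane arm, were the other protein-coding accessory subunits called as deposited, with log2 differences of 0.35 (adjusted p = 0.0422) and 0.30 (adjusted p = 0.0447). Ndufb9 was among the genes named by rule, while Ndufb5 was chosen for mention after its value was seen. The calls of Ndufb9 and Ndufb5 were each lost in 12 of the 20 runs without 1 library. Of the 50-base words of Ndufb9 and Ndufb5, 15.6% and 11.16% also occur in another annotated gene, so their levels are less certain than that of Ndufa10, with 0%.

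The lowest 4 nuclear complex I subunits lay near 0. Ndufa6, Ndufa8, Ndufc2 and Ndufs4 had log2 differences between -0.03 and -0.01 as deposited, none of them called. After scaling they lay at 0.11 (Ndufa6), 0.08 (Ndufa8), 0.11 (Ndufc2) and 0.11 (Ndufs4), and of these Ndufa6 was called (adjusted p = 0.0439). Rescaled without the ribosomal RNA-type genes all of the 4 were called lower, so their direction flips with the divisor. Ndufa8 and Ndufc2 were called higher after scaling without S217879 replicate 3 (0.14 and 0.15). Ndufs4, needed for a late step in assembling the NADH-binding module, had levels of 51.15 ± 10.36 TPM in vehicle and 50.3 ± 8.134 TPM in S217879. These genes had the lowest differences of the nuclear complex I subunits as deposited and after scaling, and whether they differed from the other subunits was not tested.

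The table also holds Ndufs6b, annotated as a processed pseudogene on chromosome 7 (chr7:81161397-81161744, minus strand, GRCm38), a copy of the complex I subunit gene Ndufs6. Its level was 1.051 to 2.045 TPM in vehicle (median 1.358) and 0.9171 to 3.047 TPM in S217879 (median 2.691). S217879 replicate 1 was the lowest of all 20 libraries and the other treated livers were above every vehicle library. Ndufs6b rose by 0.62 ± 0.13 as deposited (adjusted p = 0.000211). A share of 25.42% of its 50-base words also occurs in Ndufs6, which had 190.1 ± 42.98 TPM in vehicle and 226.9 ± 31.84 TPM in S217879. No source used here states how reads that match both were assigned, so the value of Ndufs6b is uncertain.

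The 8 complex I assembly factors (Ndufaf1 to Ndufaf8), which help build the complex without being part of it, were all called higher after scaling, with a median of 0.27. Of all tested genes 26.6% were called higher after scaling and 6.07% as deposited. Ndufaf8, which works with the arginine hydroxylase Ndufaf5, was the 1 called as deposited, from 25.18 ± 4.47 TPM to 31.01 ± 4.406 TPM (log2 difference 0.30 ± 0.12, adjusted p = 0.0442). At the other end Ndufaf7, a mitochondrial methyltransferase, had 0.07 as deposited and 0.18 after scaling. The call for Ndufaf8 was lost in 13 of the 20 runs that left out 1 library, all but those without vehicle replicate 1, 6, 8, 9 or 10 or S217879 replicate 2 or 3.

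**Figure D2:**
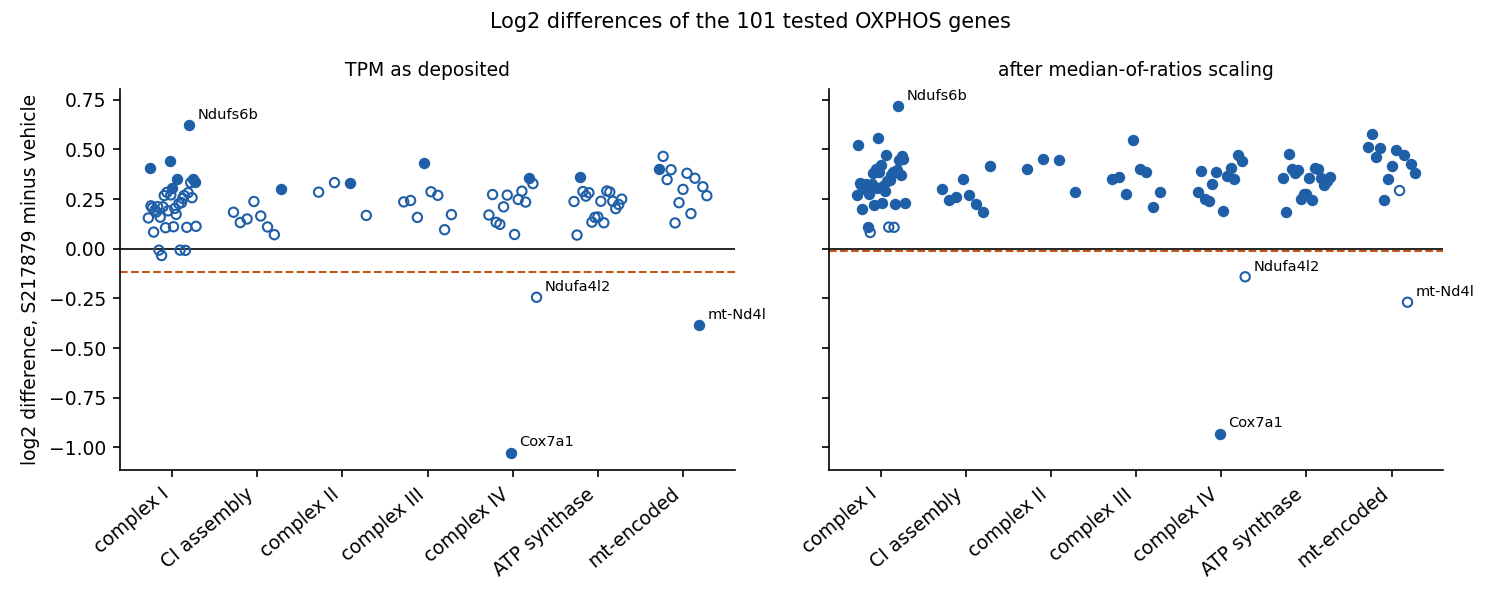
Each circle is 1 of the 101 tested members, placed by complex, with its log2 difference (S217879 minus vehicle) as deposited on the left and after median-of-ratios scaling on the right. Filled circles have an adjusted p under 0.05 and the dashed line is the median of all 13401 tested genes (-0.12 and -0.01). Nearly the whole column of every complex lies above the dashed line on both sides, and Cox7a1 stands alone at -1.03 and -0.93.

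Complex II, the succinate dehydrogenase that is also an enzyme of the tricarboxylic acid cycle, has 4 genes, and all 4 were higher after scaling with groups that did not overlap, against 7.54% of all tested genes without overlap in that direction. The scaled log2 differences were 0.45 for the iron-sulfur subunit Sdhb, 0.45 for the membrane anchor Sdhc, 0.40 for the flavoprotein Sdha and 0.29 for the second anchor Sdhd. As deposited Sdhc alone was called. Its level was 52.18 to 98.1 TPM in vehicle (median 88.41) and 86.72 to 134.3 TPM in S217879 (median 105.1), overlapping, with a log2 difference of 0.33 ± 0.13 (adjusted p = 0.0416). Sdhb missed the threshold with the same difference of 0.33 (adjusted p = 0.0503). The call of Sdhc was lost in 12 of the 20 runs without 1 library, those without vehicle replicate 2, 3, 4 or 7 or any S217879 replicate but 2 and 7, and Sdhb was called in 4 (without vehicle replicate 1, 9 or 10 or S217879 replicate 2).

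All 8 complex III genes were called higher after scaling (median 0.36), 6 of them without overlap. Of all tested genes 26.6% were called higher and 7.54% lay wholly higher. Uqcrc1, a core protein of the large matrix domain, was the member with the firmest difference of the nuclear set as deposited apart from Cox7a1 and the pseudogene Ndufs6b. Its level was 62.88 to 124 TPM in vehicle (median 108.8) and 110.1 to 161.6 TPM in S217879 (median 137.4). Every S217879 liver exceeded the vehicle median, and the ranges overlapped only between 110.1 and 124 TPM. Uqcrc1 rose by 0.43 ± 0.13 (adjusted p = 0.0085, 1.35-fold) and after scaling by 0.55 ± 0.04 (adjusted p = 2.43e-09, 1.46-fold). Together with Ndufb3 and Ndufa10 it was called in all 36 settings tried. Its partner core protein Uqcrc2 differed by 0.29 and the Rieske iron-sulfur protein Uqcrfs1 by 0.27 as deposited, neither called, and by 0.40 and 0.38 after scaling. The hinge protein Uqcrh was lowest, at 0.10 and 0.21.

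The promoters of these genes were read from RefSeq (GRCm38.p6, 250 bases before to 50 bases after each start), in which 76 of the 97 nuclear members matched, with 81 promoters of 300 bases. The 5 letter patterns known from respiratory genes or from NRF2 were searched on both strands. The NRF1 pattern GCATGCGC (NRF1 is nuclear respiratory factor 1, a different protein from NRF2) was in 14.8% of the member promoters against 2.71% of all 32851 promoters. Its 12 genes were Atp5g2, Atp5k, Atp5l, Cox6a1, Ndufa6, Ndufa8, Ndufa11, Ndufaf4, Ndufaf5, Sdhb, Uqcr11 and Uqcrc1, of which Uqcrc1 alone was called as deposited. The YY1 pattern AAGATGGC was in 13.6% of member promoters and 2.75% of all, and the ERR pattern TCAAGGTCA in 2.47% and 0.423%. The ETS pattern of GABP, CCGGAAGT, was in 6.17% and 3.89%. The core of the antioxidant response element to which NRF2 binds, TGACNNNGC, was in 14.8% of member promoters and 12.4% of all. A match is a description of letters and no sign of binding. Ndufb3 and Atp5c1, both called higher as deposited, held none of the 5 patterns, and neither did Cox7a2, not called as deposited. Whether holding a pattern goes with the direction of a gene was not tested. The promoters of 4 members are shown because they belong to the members the results turn on: 3 called higher as deposited, each with a different pattern, and Cox7a1, which was lower and held none of the 5. They are Uqcrc1 (chr9:108936398-108936697, plus strand, NRF1 pattern in capitals, read on both strands in 2 matches that overlap), Cox8a (chr19:7217567-7217866, minus strand, 2 GABP patterns in capitals, read on the opposite strand), Ndufa10 (chr1:92473709-92474008, minus strand, antioxidant response element core in capitals, read on the opposite strand) and Cox7a1 (chr7:30183921-30184220, plus strand), each written 5′ to 3′ in the direction of the gene. Matches of different patterns do not overlap in them.
Uqcrc1: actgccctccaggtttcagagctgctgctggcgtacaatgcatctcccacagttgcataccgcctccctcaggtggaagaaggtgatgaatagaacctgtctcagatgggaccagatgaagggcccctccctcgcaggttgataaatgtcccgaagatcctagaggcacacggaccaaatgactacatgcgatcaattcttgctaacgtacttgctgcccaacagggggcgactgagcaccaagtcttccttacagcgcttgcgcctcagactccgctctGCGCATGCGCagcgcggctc
Cox8a: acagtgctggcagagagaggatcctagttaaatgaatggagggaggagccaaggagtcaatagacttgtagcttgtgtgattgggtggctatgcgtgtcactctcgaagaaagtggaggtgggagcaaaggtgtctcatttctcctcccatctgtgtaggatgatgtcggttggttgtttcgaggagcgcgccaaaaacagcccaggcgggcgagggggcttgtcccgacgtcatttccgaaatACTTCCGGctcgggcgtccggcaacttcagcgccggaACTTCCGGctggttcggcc
Ndufa10: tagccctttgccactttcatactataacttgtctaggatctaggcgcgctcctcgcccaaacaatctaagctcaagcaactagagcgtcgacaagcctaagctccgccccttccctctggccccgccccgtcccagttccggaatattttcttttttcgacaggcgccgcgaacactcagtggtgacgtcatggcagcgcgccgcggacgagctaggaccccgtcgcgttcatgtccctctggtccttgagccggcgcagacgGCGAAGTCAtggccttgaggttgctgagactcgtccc
Cox7a1: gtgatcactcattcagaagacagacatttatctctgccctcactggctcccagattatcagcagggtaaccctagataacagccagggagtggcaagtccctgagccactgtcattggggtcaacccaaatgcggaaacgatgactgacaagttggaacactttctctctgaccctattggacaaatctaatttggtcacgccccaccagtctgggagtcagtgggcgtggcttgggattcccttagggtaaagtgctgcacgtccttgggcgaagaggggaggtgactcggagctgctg

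Complex IV, cytochrome c oxidase, has several subunits with a liver form and forms known from other tissues. Of its 21 nuclear genes 14 were tested. After scaling 12 were called higher and 1 lower, with a median of 0.34, and as deposited 1 was called in each direction. Of all tested genes 26.6% were called higher and 27.1% lower after scaling, and 6.07% and 23.5% as deposited. Cox8a, the smallest nuclear subunit in its form found in liver and most other tissues, was the 1 higher as deposited. Its level was 342.1 to 641.6 TPM in vehicle (median 575.3) and 528.6 to 814.6 TPM in S217879 (median 689.5). The groups overlapped as deposited and not after scaling. Cox8a rose by 0.36 ± 0.14 (adjusted p = 0.0405), and by 0.47 ± 0.06 after scaling. The call as deposited was lost in 11 of the 20 runs without 1 library, those without vehicle replicate 3, 4, 5 or 7 or S217879 replicate 1, 4, 5, 6, 8, 9 or 10. Its promoter is printed above.

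Cox7a1 went the other way. It is the form of the subunit Cox7a known from heart, skeletal muscle and brown fat, while Cox7a2 is the form of liver and most tissues. Cox7a1 was at 2.972 to 6.245 TPM in vehicle (median 4.313) and 1.177 to 3.126 TPM in S217879 (median 2.063). All S217879 livers lay below the vehicle median, and the ranges met only through the lowest vehicle library, replicate 7, and the highest treated one. Cox7a1 fell by 1.03 ± 0.12 on the log2 scale (adjusted p = 8.50e-09), to 0.491 of the vehicle level. After scaling it fell by 0.93 ± 0.11 (adjusted p = 4.00e-07) with no overlap, as 5.04% of all genes did in that direction. It was called in all 35 settings in which it was tested.

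Cox7a2 was at 94.12 to 177.2 TPM in vehicle (median 155.8) and 125.1 to 237 TPM in S217879 (median 149.6), and differed by 0.07 as deposited (adjusted p = 0.7268) and by 0.19 after scaling (adjusted p = 0.0097). Within a library, which removes its scale, Cox7a1 was 2.178% to 4.412% of Cox7a2 in vehicle (median 3.044%) and 0.9156% to 1.987% in S217879 (median 1.347%). These ranges did not overlap, and they did not without vehicle replicates 6 and 7. Cox7a1 was a minor form in every liver, TPM being per length. Another gene of the family, Cox7a2l, which takes part in joining complexes III and IV into supercomplexes, differed by 0.25 as deposited, not called, and rose by 0.36 after scaling.

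**Figure D3:**
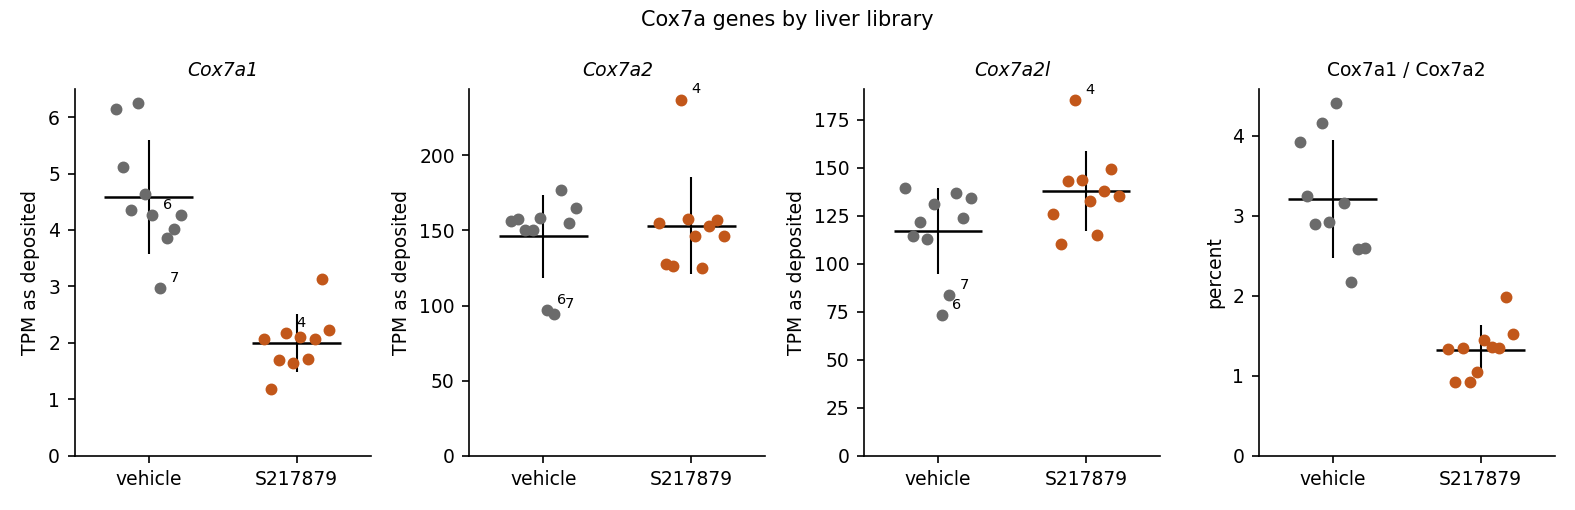
Each point is 1 liver library, with the group mean and 1 SD (n = 10 each). The first 3 panels give TPM as deposited for Cox7a1, Cox7a2 and Cox7a2l, and the last gives Cox7a1 as a percent of Cox7a2, where every S217879 liver (up to 1.987%) lies below every vehicle liver (from 2.178%).

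Markers of the tissues known for Cox7a1 were looked up beside this. Of 12 striated and heart muscle markers 11 were below 1 TPM. Their summed level was 1.401 to 2.732 TPM in vehicle and 1.089 to 2.312 TPM in S217879, nearly all of it from Pygm, the muscle glycogen phosphorylase (1.817 ± 0.4024 and 1.345 ± 0.3072 TPM). Ckm, Acta1 and Mb, which define muscle, had means under 0.03 TPM in both groups. Of the 5 brown fat markers Ucp1 and Otop1 had means under 0.02 TPM. The other 3 were above the minimum level in these livers, and of them Ppargc1a was called lower and Cidea and Elovl3 were not. Summed, the list had 32.37 to 116.1 TPM in vehicle and 41.32 to 105 TPM in S217879, with 9 of 10 treated livers below the vehicle median. Markers of smooth muscle cells and pericytes were present, at 34.66 to 62.09 TPM summed in vehicle and 28.04 to 58.41 TPM in S217879, and 3 of the 6 tested of 8 were called lower (Tagln, Rgs5 and Abcc9). Stellate cell markers were called lower in 6 of 6 as deposited, with a summed level of 214 to 393.2 TPM in vehicle and 173 to 328.1 TPM in S217879. Macrophage markers were lower in 5 of 7, with sums of 571.8 to 1120 and 471.3 to 875.6 TPM, and cholangiocyte markers in 2 of 4 tested, where 23.5% of all genes were called lower. Endothelial markers were higher in 3 and lower in 1 of 7, and hepatocyte markers higher in 2 and lower in 1 of 7 tested. Of all genes 6.07% were called higher. These calls were as deposited. After scaling 5 of 6 stellate and 5 of 7 macrophage markers were called lower, as were 27.1% of all genes. So were 2 of 4 cholangiocyte and 3 of 6 smooth muscle and pericyte markers. Endothelial markers were then higher in 5 and lower in 1, and hepatocyte markers higher in 3 and lower in 1 (26.6% of all genes higher). As deposited hepatocyte markers summed to 26600 to 61070 TPM in vehicle and 33230 to 52040 TPM in S217879. In that sum 10 of 10 treated livers were below the vehicle median, and 8 of 10 after scaling. Endothelial sums were 65.64 to 138.1 and 116.3 to 155.8 TPM, with 10 of 10 above the vehicle median. Markers of T, NK and B cells and of red cells were called in 0 as deposited, and after scaling 1 of 5 red cell markers was called higher. From the white fat list Cfd alone was tested and rose (2.37), while Adipoq, Plin1, Lep and Retn had means under 0.05 TPM. From the exocrine pancreas list Cela1 alone was tested and rose (1.02), while Prss2, Pnlip and Ctrb1 had means under 0.05 TPM and Cpa1 and Amy2a5 were at 0. The part of these cells in the Cox7a1 result, and in the rise of the other members, was not tested.

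Ndufa4l2, a paralog of the complex IV subunit Ndufa4 known to be induced by low oxygen, was the other complex IV member below 0. It had 3.788 ± 0.8692 TPM in vehicle and 3.11 ± 0.7255 TPM in S217879, a difference of -0.24 as deposited (adjusted p = 0.1278) and -0.14 after scaling (adjusted p = 0.1303). It was called lower in 6 of the 35 settings in which it was tested. These were rescaling without the ribosomal RNA-type genes or without the 20 most abundant genes, array weights, and leaving out vehicle replicate 6, replicate 7 or both. Ndufa4 itself had 250.9 ± 53.03 and 309.9 ± 45.09 TPM, 0.33 as deposited (adjusted p = 0.0638), and rose by 0.44 after scaling without overlap.

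The other forms from muscle, testis or lung were at trace levels. Means over either group were under 1 TPM for Cox4i2, Cox6a2, Cox6b2 and Cox8b, and Cox7b2 and Cox8c were listed at 0 in every library. Their liver counterparts Cox4i1, Cox6a1 and Cox6b1 were at 426.6 ± 96.16, 720.5 ± 165.1 and 312.4 ± 59.44 TPM in vehicle, and were called higher after scaling by 0.29, 0.24 and 0.33. Cox6b2, known from testis, had 0.3568 to 1.318 TPM in vehicle (median 0.8106) and 0.2049 to 0.6664 TPM in S217879 (median 0.3973), so that all S217879 libraries were under the vehicle median although the ranges overlapped. With a minimum of 0.1 TPM it was called lower with Cox6a2. The remaining members below the minimum were the pseudogenes Cox6c2, Ndufa11b and Ndufb4c, which makes 9 in all.

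The ATP synthase had 17 nuclear genes, and after scaling all 17 were called higher (median 0.36), 9 of them without overlap. Of all tested genes 26.6% were called higher and 7.54% lay wholly higher. Atp5c1, the gamma subunit that forms the turning shaft, was the 1 called as deposited. Its level was 97.12 to 194 TPM in vehicle (median 179.2) and 167.4 to 274.9 TPM in S217879 (median 208.4). The ranges overlapped as deposited and not after scaling. Atp5c1 rose by 0.36 ± 0.13 (adjusted p = 0.0342) and by 0.48 ± 0.05 after scaling (adjusted p = 1.54e-07). The call as deposited was lost without vehicle replicate 7 or S217879 replicate 3, 4 or 5, with adjusted p up to 0.0653.

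The catalytic head has the alpha subunit Atp5a1 and the beta subunit Atp5b, among the most abundant members at 577 ± 122.9 and 532.3 ± 111.9 TPM in vehicle. Their scaled differences were 0.36 and 0.19, and as deposited 0.24 and 0.07, neither called. Atp5b was the lowest of the 17 on both scales, and 1 of 10 treated livers exceeded the vehicle median as deposited. The 3 genes of the proton-carrying c-ring, which make the same mature protein, lay close together after scaling, at 0.25 (Atp5g1), 0.27 (Atp5g2) and 0.28 (Atp5g3). Atp5g3 was the most abundant of them, at 258.6 ± 52.04 TPM in vehicle against 71.93 ± 13.2 for Atp5g2 and 42.59 ± 8.973 for Atp5g1. Atp5d, the delta subunit of the stalk, and Atp5j2, a subunit of the membrane part, followed Atp5c1 with 0.40 and 0.41 after scaling.

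By complex, the scaled sums differed by similar amounts. The S217879 mean was 24.5% higher for complex I subunits, 30.3% for complex II, 27.3% for complex III, 26.7% for complex IV and 25.3% for the ATP synthase, each with groups that did not overlap. As deposited the same differences were between 12.9% and 18.1%, all overlapping. Whether the complexes differed from each other was not tested. Levels of single members differed far more than their responses: means over all libraries of the complex I subunits, TPM being per length, ran from 12.64 to 366.3. Across the 87 protein-coding nuclear members tested, members with longer annotated exons had lower TPM (Spearman's rho -0.39 across genes, which share libraries and are not replicates). The part of the annotated length, by which TPM is divided, in that spread was not tested.

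The 13 mitochondrial mRNAs fell into 2 classes by level. The first 7, mt-Co1, mt-Cytb, mt-Nd1, mt-Nd2, mt-Nd5, mt-Nd6 and mt-Nd4, were above 1000 TPM and held 99.8% of the summed level. The other 6 were below 100 TPM: mt-Nd3, mt-Nd4l, mt-Co3, mt-Atp6, mt-Atp8 and mt-Co2. The mRNAs of both classes encode subunits of the same complexes and are cut from long shared transcripts. The table lists mt-Co1 at 17670 ± 3763 TPM and mt-Co2, of the same enzyme, at 3.957 ± 0.9747 TPM in vehicle. The low class held the mRNAs with the most shared sequence. When each mRNA was cut into 50-base words and looked up in all other GENCODE M21 transcripts, mt-Co2 shared 100% of its words with another gene, mt-Co3 99.86%, mt-Atp6 99.53%, mt-Nd4l 98.79% and mt-Nd3 97.99%. The partners are unprocessed pseudogenes side by side in a nuclear copy of mitochondrial DNA on chromosome 1.

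For mt-Co2 and mt-Nd4l the first 60 bases are printed with those of the copies Gm28661 (chr1:24614885-24615565, minus strand) and Gm10222 (chr1:24612407-24612700, minus strand), and for mt-Nd3 with Gm28438 (chr1:24612775-24613119, minus strand), to show sequences from which a read has more than 1 possible origin. The mitochondrial genes are at chrM:7013-7696, chrM:9877-10173 and chrM:9459-9806, plus strand (GRCm38, GENCODE M21). Over the compared length the first pairs had 0 mismatches in 681 and 0 in 294 bases, and mt-Nd3 had 1 in 345, shown in capitals.
mt-Co2: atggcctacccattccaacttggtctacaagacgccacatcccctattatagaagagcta
Gm28661: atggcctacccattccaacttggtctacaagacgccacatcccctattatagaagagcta
mt-Nd4l: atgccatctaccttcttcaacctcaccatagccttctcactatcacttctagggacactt
Gm10222: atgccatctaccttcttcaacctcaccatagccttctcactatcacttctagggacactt
mt-Nd3: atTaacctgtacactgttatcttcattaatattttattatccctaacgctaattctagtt
Gm28438: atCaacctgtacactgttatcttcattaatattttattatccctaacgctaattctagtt

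A further 2 mRNAs had more than 50% of their words shared and were abundant all the same, mt-Nd4 with 62.23% and mt-Co1 with 51.14%. The others were below 10%. The exception among the low genes was mt-Atp8, at 5.738 ± 1.63 TPM in vehicle with 0% of words in another annotated transcript. Its position in the chromosome 1 copy carries no annotated gene of its own. On the mitochondrial DNA its end overlaps mt-Atp6 (chrM:7766-7969 and chrM:7927-8607), whose copy Gm10925 is annotated. That overlap is shorter than the 50-base words, so the count of shared words could not show it. No source used here states how reads that match several places or overlap several genes were counted. The levels and differences of the 6 low mRNAs are therefore treated as uncertain.

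**Figure D4:**
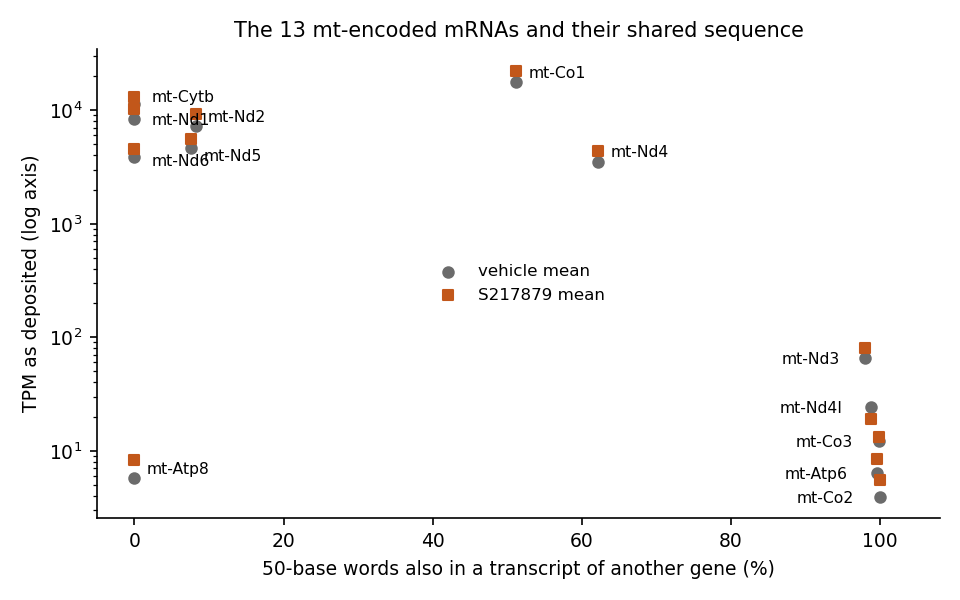
Each of the 13 mt-encoded mRNAs is drawn at the percent of its 50-base words that also occur in a transcript of another gene (horizontal axis) and its mean TPM as deposited on a log axis, with circles for vehicle and squares for S217879 (n = 10 each, means without error bars). The 5 mRNAs at 98% to 100% lie below 100 TPM, mt-Atp8 lies low at 0%, and the other 7 lie above 1000 TPM.

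The 7 abundant mitochondrial mRNAs were all called higher in S217879 after scaling, and 0 of them as deposited. Over all 13, the uncertain low ones included, 11 were called higher after scaling and 0 lower (26.6% and 27.1% of all genes) with a median log2 difference of 0.43, and as deposited 1 was called in each direction with a median of 0.31. The median stood 0.43 above that of all genes as deposited and 0.44 after scaling, which moves all genes alike, and 0.038 above it after quantile normalization. Under quantile normalization mt-Nd4 was the 1 abundant mRNA called higher, beside mt-Atp6, mt-Atp8, mt-Co2 and mt-Co3, and mt-Co1 and mt-Cytb were at -0.05 and -0.04, not called. Leaving out vehicle replicates 6 and 7 gave 11 higher and 0 lower after scaling, and 1 each as deposited. As deposited the count called higher was 0 to 4 over the runs without 1 library, with 4 without S217879 replicate 2 and 0 without vehicle replicate 7 or 10 or S217879 replicate 1, 3, 5, 6, 7, 9 or 10. The count called lower was 0 without S217879 replicate 1 or 3 and 1 in the other runs.

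The complex IV subunit mt-Co1 had 9602 to 21010 TPM in vehicle (median 19390) and 16340 to 35660 TPM in S217879 (median 21360). S217879 replicate 3 was the highest of all libraries, and the groups overlapped as deposited. After scaling mt-Co1 was the 1 mitochondrial mRNA of 13 without overlap, against 7.54% of all tested genes in that direction. Its difference was 0.35 ± 0.16 as deposited (adjusted p = 0.0993) and 0.46 ± 0.10 after scaling (adjusted p = 0.000685). The 4 abundant complex I mRNAs on the heavy strand, mt-Nd1, mt-Nd2, mt-Nd4 and mt-Nd5, rose by 0.42, 0.50, 0.47 and 0.43 after scaling, and mt-Cytb, the only complex III subunit made in the organelle, by 0.35 (adjusted p = 0.003). mt-Nd6, the only one of the 13 on the light strand, rose by 0.38 (adjusted p = 0.0019), and since no source states whether counting used the strand, its reads cannot be told apart from those of the opposite strand.

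Of the low mRNAs mt-Atp6 was called higher on both scales, from 6.43 ± 1.71 to 8.405 ± 1.383 TPM (0.40 ± 0.15, adjusted p = 0.0401 as deposited), a call lost in 10 of the 20 runs without 1 library, those without vehicle replicate 7 or 10 or S217879 replicate 1, 3 or 5 to 10. mt-Nd4l was lower as deposited, from 24.37 ± 4.145 to 18.91 ± 5.211 TPM. Its libraries ran from 15.68 to 29.28 TPM (median 23.84) in vehicle and from 12.67 to 28.48 TPM (median 18.35) in S217879, with 8 of 10 treated livers below the vehicle median. The log2 difference was -0.38 ± 0.13 (adjusted p = 0.0249), and it was lost after scaling (-0.27, adjusted p = 0.1046) and without S217879 replicate 1 or 3. Set against mt-Nd4, with which it shares 1 transcript, mt-Nd4l made 0.5781% to 0.9213% in vehicle (median 0.6938%) and 0.2406% to 0.6639% in S217879 (median 0.4322%). All 10 treated livers were below the vehicle median and the ranges overlapped. Its copy Gm10222 went from 3.592 ± 0.9607 to 4.798 ± 2.45 TPM (log2 difference 0.30, adjusted p = 0.3232), so mt-Nd4l and the copy with the same letters had differences of opposite sign, the second of them not called.

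The 2 genomes were then compared within each library, where the scale cancels. The ratio of the mitochondrial to the nuclear sum was 4.153 to 5.56 in vehicle (median 4.745) and 4.395 to 8.344 in S217879 (median 4.887). The groups overlapped, and S217879 replicate 3 was highest at 8.344, with the next treated library at 5.16 and the highest vehicle library at 5.56. The mean was 8.74% higher in S217879 with that library and 1.26% higher without it (4.74 ± 0.3856 in vehicle, 4.799 ± 0.2526 in the other 9). The summed mitochondrial level itself was 30800 to 67780 TPM in vehicle and 51880 to 96710 TPM in S217879, 22.6% higher on average as deposited and 17.3% without replicate 3. After scaling it was 45000 to 61200 and 61410 to 110500 TPM, without overlap, with means 36.6% apart and 28.7% apart without replicate 3. Rescaled without the 4 ribosomal RNA-type genes, the means were 13.4% apart with overlapping groups, and 8.46% apart without S217879 replicate 3. Without vehicle replicates 6 and 7 they were 11.5% apart as deposited and 32.5% after scaling. Without S217879 replicate 3 the mean ratios differed by less than 1 SD of either group, which is no test that the nuclear and mitochondrial members changed alike.

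The other genes of the organelle were counted from 10 lists. After scaling the translation factors of the mitochondrial ribosome had 9 of 12 called higher and 0 lower (median 0.28), and the import and chaperone genes 19 of 21 higher and 0 lower (0.26), as high a median as that of the tricarboxylic acid cycle. Assembly factors not covered by the member symbols had 29 of 42 higher and 1 lower (0.20), and RNA processing genes 12 of 18 higher and 0 lower (0.19). The mitochondrial ribosome had 59 of 78 higher and 1 lower (0.18), and electron carriers with coenzyme Q synthesis had 11 of 18 higher and 1 lower (0.15). The adenine nucleotide, phosphate and uncoupling carriers had 4 of 8 higher and 4 lower (-0.04). All of these compare with 26.6% higher and 27.1% lower among all genes. The nuclear OXPHOS members had a higher median than any of these lists, a difference that was not tested.

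Named genes of these lists include some with larger differences than any protein-coding subunit called higher. Coq8a, an atypical kinase of coenzyme Q synthesis, went from 71.03 ± 18.39 to 113.8 ± 9.734 TPM without overlap as deposited (log2 difference 0.72, adjusted p = 4.31e-05), and Coq7, a hydroxylase of the same pathway, rose by 0.37 (adjusted p = 0.0173). Gpd2, the mitochondrial glycerol phosphate dehydrogenase that passes electrons to coenzyme Q, fell by 0.58 (adjusted p = 0.000344), while cytochrome c itself, Cycs, differed by 0.21 as deposited (adjusted p = 0.252) and 0.32 after scaling. Slc25a5, the adenine nucleotide carrier of most tissues, went from 409 ± 84.66 to 568.4 ± 73.32 TPM without overlap (0.50, adjusted p = 0.0039), while its muscle form Slc25a4 fell by 0.38 (adjusted p = 0.0118) from 11.56 ± 2.167 TPM. The uncoupling protein Ucp2 fell by 0.65 (adjusted p = 2.19e-05) and the aspartate and glutamate carrier Slc25a12 by 0.37 (adjusted p = 0.0063). Among assembly factors Coa5, for complex IV, rose by 0.45 (adjusted p = 0.0038) and Lyrm7, a chaperone of Uqcrfs1, by 0.42 (adjusted p = 0.0011), while Sdhaf1 of complex II fell by 0.32 (adjusted p = 0.0293). In the other lists the largest rises were those of Mrpl14 and Mrpl30 of the mitochondrial ribosome (0.59 with adjusted p = 0.000642, and 0.33 with adjusted p = 0.0292), the RNA exonuclease Rexo2 (0.50, adjusted p = 0.0025), the inner membrane protease Spg7 (0.32, adjusted p = 0.0334) and the ribosome recycling factor Gfm2 (0.31, adjusted p = 0.0293). Each of the genes named here kept its call and direction after scaling, apart from Cycs, called only then, and of those called as deposited Sdhaf1 lost its call in 8, Spg7 in 6 and Mrpl30 in 2 of the 20 runs without 1 library.

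Genes that run or regulate the mitochondrial genome were counted in the same way. Of 19 tested for DNA maintenance and transcription, 6 were called higher after scaling, a share near the 26.6% of all genes, and 1, Dna2, lower (median 0.08), and 0 higher and 1 lower as deposited. Tfam, which packages mitochondrial DNA and starts its transcription, was at 16.42 ± 3.437 and 16.18 ± 2.037 TPM (0.00 as deposited, and 0.12 after scaling with adjusted p = 0.0405), and it was called lower when rescaled without the ribosomal RNA-type genes (-0.14) and with array weights (-0.18), so its direction flips with the setting. The RNA-binding protein Lrpprc, which stabilises mitochondrial mRNAs, differed by 0.05 as deposited and rose by 0.17 after scaling, and the polymerase Polrmt was at 11.38 ± 2.408 and 10.74 ± 1.244 TPM, not called on either scale. The 13 tested regulators of biogenesis had a scaled median of -0.05 with 2 called higher and 3 lower. Neither share was larger than the 26.6% higher and 27.1% lower among all genes. The coactivator Ppargc1a was lower on both scales, from 3.532 ± 0.6788 to 2.298 ± 0.5401 TPM (-0.53, adjusted p = 0.000329 as deposited, -0.44 after scaling), as was the transcriptional cofactor Hcfc1 (-0.32 and -0.21). Nrf1 (-0.19) and Esrra (-0.12) were not called on either scale, although Nrf1 was called lower without vehicle replicate 6, and Gabpa differed by 0.08 as deposited and rose by 0.20 after scaling.

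**Figure D5:**
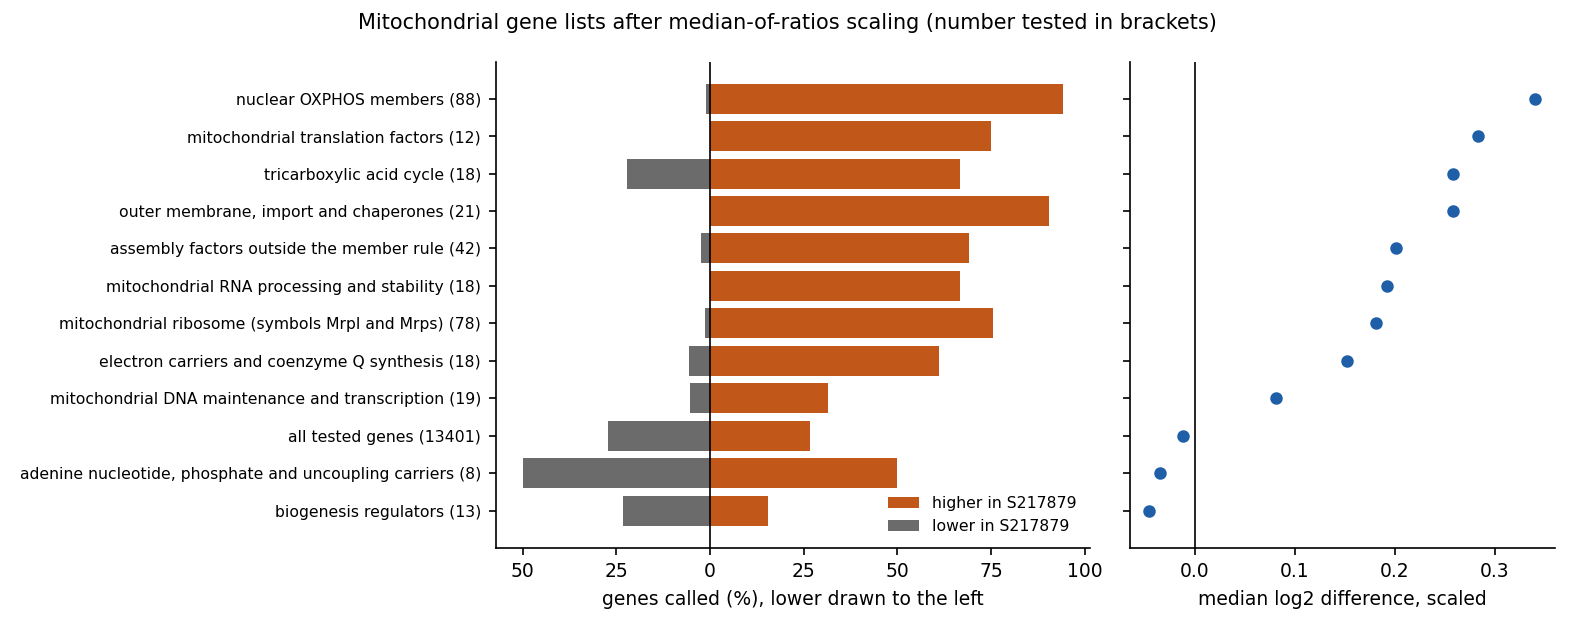
The left panel gives the percent of tested genes called higher (to the right) or lower (to the left) in S217879 after median-of-ratios scaling for each list, with the number tested in brackets, and the right panel the median log2 difference. The nuclear OXPHOS members are at the top with 94.3% called higher and a median of 0.34, and the biogenesis regulators are at the bottom with -0.05, below all tested genes at -0.01.

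The tricarboxylic acid cycle, which feeds the chain with NADH and succinate, had 12 of 18 genes called higher and 4 lower after scaling (median 0.26), against 26.6% and 27.1% of all genes, so that the share called lower was no larger than elsewhere. Suclg2 and Suclg1 of succinyl-CoA ligase, the step before complex II, rose by 0.54 and 0.38 as deposited, and Suclg2 did so without overlap, from 139.6 ± 29.21 to 199.5 ± 22.15 TPM (adjusted p = 0.0012). Dlat, Idh3a and citrate synthase (Cs), which act earlier, fell by 0.38, 0.35 and 0.33 as deposited (adjusted p = 0.0177, 0.0323 and 0.0307), and by 0.26, 0.24 and 0.21 after scaling. Citrate synthase, whose enzyme activity is often used as a measure of mitochondrial content, had 106.1 ± 16.33 TPM in vehicle against 84.12 ± 12.31 TPM in the treated livers, and was chosen for mention after its value was seen. As deposited the call of Cs was lost in 11 and that of Idh3a in 10 of the 20 runs without 1 library, and that of Suclg1 without vehicle replicate 7 or S217879 replicate 4.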

How the data were processed

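Poly(A) RNA was prepared from liver with a lipid tissue RNA kit and a stranded mRNA library kit, per the labels' protocols. The authors deposited 1 table of TPM values, a unit named by the file and entered as "other" in the check of units. Trimmomatic 0.36, STAR 2.5.2b, featureCounts of Subread 1.5.2 and GRCm38 are listed in the submitters' processing notes. No source used here states the annotation, the handling of multi-mapped reads or whether counting used the strand. Gene symbols and positions were taken from GENCODE M21 (48970 of 49315 identifiers matched).

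Tests used limma 3.58.1 in R 4.3.3 on log2(TPM + 0.5), with eBayes trend and robust options and Benjamini-Hochberg adjustment over the 13401 genes of at least 1 TPM on average. Differences on this scale understate the change of low genes. Median-of-ratios factors came from 13226 genes. The TPM carry no depth, so no counting intervals are given. On simulated data with 13401 genes the test recovered 62.7% of log2 changes of 0.5, 97% of 1 and 100% of 2, and called 0.053% of unchanged genes. Whether these rates hold in the deposited libraries, where the ribosomal RNA-type share lowers all other genes of a library together, was not tested. Alternatives were other pseudocounts, minimum levels, scalings, eBayes options, array weights, an exact Wilcoxon rank-sum test and libraries left out.

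The members and lists were chosen with earlier results of these data known. Genes were named by a rule: all mitochondrial mRNAs; in each role group the 2 most abundant and the 3 highest and 3 lowest in log2 difference; tissue-restricted isoforms; and in each context list the 2 highest and 2 lowest called. The NRF1 pattern was shortened to 8 letters after counts for a longer form had been seen. Samples were grouped by their labels, and all 20 entered the tests unless a sentence says otherwise.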

Additional observations from a re-analysis of the deposited data

Results flagged for a closer look

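Of 142 groups of 10 values looked at, 19 had their highest or lowest library set apart from the other 9 by a larger part of the whole range than Dixon's criterion for 10 values allows. Chance alone marks about 1 in 20 groups, and the groups share libraries.

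S217879 replicate 4, the library with the lowest share of ribosomal RNA-type sequence (14.07%), was set apart in this way as the highest of its group as deposited for 10 of the genes looked at. These were Sdhc at 134.3 TPM, Sdhd at 311.8, Uqcrc2 at 226.3, Uqcrfs1 at 317.0, Ndufb3 at 152.4, Ndufaf1 at 35.39, Cox7a2 at 237.0 (the next library had 157.7), Cox7a2l at 185.3, Cox7b at 226.9 and Atp5g2 at 106.1 TPM.

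S217879 replicate 3 was the highest of its group for mt-Co1 at 35660 TPM, mt-Cytb at 17980 and mt-Nd5 at 7143 TPM. The same library had the highest mitochondrial sum as deposited, 96710 TPM against 72410 in the next, and after scaling, 110500 against 78890. Its ratio of the mitochondrial to the nuclear sum was 8.344 against 5.16.

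S217879 replicate 5 had the highest scaled nuclear sum, 16320 TPM against 14390 in the next library. S217879 replicate 1 was the lowest of its group for the pseudogene Ndufs6b, at 0.9171 TPM against 2.068. Vehicle replicate 3 was the highest of its group for Cox6a2, the muscle form of a complex IV subunit, at 1.071 TPM against 0.4971.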

How the results depend on the processing

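No paired analysis was possible because the replicate numbers only name animals in order and pair none across groups. Depth is unknown in TPM. The nuclear count called higher (12 as deposited) was 83 after median-of-ratios scaling, 62 after quantile normalization, 54 and 34 when rescaled without the 20 most abundant and without the 4 ribosomal RNA-type genes, 21 with array weights and by the exact Wilcoxon rank-sum test, and 4 with no minimum level. Of all tested genes 6.07% were higher as deposited. In these settings, in the same order, 26.6%, 26.4%, 10.8%, 7.54%, 7.2%, 6.22% and 2.62% were. The nuclear count called lower (1) was 0 with a minimum of 5 TPM, where Cox7a1 is not tested, 2 with no minimum, after quantile normalization, without the 20 most abundant genes and without vehicle replicates 6 and 7, 3 with a minimum of 0.1 TPM, 4 with array weights and 6 without the ribosomal RNA-type genes. With a minimum of 0.1 TPM or none, the count lower includes members below 1 TPM. Over the 88 members tested elsewhere it was 1 in both settings. Of all tested genes 23.5% were lower as deposited, 25% after quantile normalization, 54.5% without vehicle replicates 6 and 7 and 64% without the ribosomal RNA-type genes. Array weights gave 8023 of 13401 lower and leaving out the 20 most abundant genes 7279 of 13381. A minimum of 5 TPM gave 1642 of 8436, one of 0.1 TPM 4713 of 21416 and none 4335 of 36279. The mitochondrial count called higher (1) was 11 after scaling, 6 without the ribosomal RNA-type genes, 5 after quantile normalization and without the 20 most abundant genes, 4 with array weights and by the Wilcoxon test, 2 with plain eBayes and 0 with a minimum of 0.1 TPM or none. The mitochondrial count called lower (1) was 0 after scaling, after quantile normalization and with no minimum. The shares of all genes given above apply to the mitochondrial counts too. Plain eBayes called 6.13% of all genes higher, and a minimum of 0.1 TPM 4.69%. Chosen after seeing the data were scaled fits without vehicle replicates 6 and 7 (80 nuclear and 11 mitochondrial higher, 0 mitochondrial lower) and without S217879 replicate 3 (84, 11 and 0). Leaving out each library in turn gave 4 to 14 nuclear members higher and 1 to 2 lower, and 0 to 4 mitochondrial higher and 0 to 1 lower. Of all tested genes 3561 were higher after scaling and 7303 lower without vehicle replicates 6 and 7. In the scaled fits without vehicle replicates 6 and 7 and without S217879 replicate 3, 24.1% and 26.8% were higher. The median distance from all tested genes (0.343 nuclear, 0.43 mitochondrial) was 0.165 and 0.038 after quantile normalization, and 0.317 to 0.356 and 0.377 to 0.46 over the libraries left out. Directions turned with a call for Ndufa6 (0.109 after scaling), Ndufa8 and Ndufc2 (0.142 and 0.154, scaled and without S217879 replicate 3) and Tfam (-0.137 without the ribosomal RNA-type genes, -0.177 with array weights). For single genes, 3110 values over 100 genes kept direction and call, 275 gained a call, 181 lost one and 5 turned. The causes were not tested.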
